A study of Mus musculus with 8 samples.

Results

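The 5493 H3K9me3 peaks of mouse chromosome 1 make up 10.2% of the 53761 peaks called in colon crypts, the largest number of any chromosome. They were chosen by their chromosome alone, after the count of peaks had shown chromosome 1 to be the richest, so that richness is a description and not a finding. Trimethylation of histone H3 lysine 9 was measured by ChIP-seq in whole crypt isolates of the colon from male C57BL/6 mice, with 3 ChIP libraries from *Smarcad1*-KO mice (KO), 3 from wild type mice (WT) and 1 input library per genotype. In KO mice a *Vil-cre* transgene, driven by the promoter of the villin gene, deletes floxed *Smarcad1* in the intestinal epithelium, and other cells that remain in a crypt isolate keep the gene. The study's methods state matching for age for the colitis experiments and not for the mice used here. The age of these mice and whether the WT animals carried the floxed allele are not given in the sources used here. Libraries of a genotype are labelled as separate samples, and p-values measure the spread between them. The identity of the tissue could not be checked with marker genes, since a repressive histone mark does not report expression.

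H3K9me3 marks heterochromatin, the compact and mostly silent part of the genome. It is written by the SUV39H and SETDB1 methyltransferases and bound by HP1 proteins, and it covers satellite DNA, many transposable elements, clusters of zinc finger genes and parts of gene deserts. Smarcad1 is an ATP-dependent nucleosome remodeler that helps to keep such marks in place when chromatin is copied. A single round of peak calling pooled the ChIP libraries of both genotypes, so each peak has a value in every library. That value is a log2 read count per peak, which the authors had matched to 1 shared distribution across the 6 ChIP libraries, so values compare peaks within the mark and not its total amount. A difference of 1 on this scale is a doubling. A peak counted as changed when limma, fitted over all peaks of the genome with genotype as the only factor, gave a Benjamini-Hochberg adjusted p under 0.05.

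The sequences under the peaks were read from the GRCm38 reference, plus strand. The 300 bases at the center of 5 peaks are shown, because they hold the highest WT level in the peak-rich bins described below, the 2 peaks of those bins that changed, the largest decrease and the largest increase but for *Vil1*. Capitals mark the bases that the reference soft-masks as repeats.
Highest WT level in the densest bins, chr1:145521526-145521825: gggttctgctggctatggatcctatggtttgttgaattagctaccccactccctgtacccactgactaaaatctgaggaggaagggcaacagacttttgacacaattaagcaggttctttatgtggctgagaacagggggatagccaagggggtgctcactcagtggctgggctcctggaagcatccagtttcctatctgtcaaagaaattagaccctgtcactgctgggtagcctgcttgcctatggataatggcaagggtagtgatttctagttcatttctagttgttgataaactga
Increased, gene desert at 101 Mb, chr1:101028226-101028525: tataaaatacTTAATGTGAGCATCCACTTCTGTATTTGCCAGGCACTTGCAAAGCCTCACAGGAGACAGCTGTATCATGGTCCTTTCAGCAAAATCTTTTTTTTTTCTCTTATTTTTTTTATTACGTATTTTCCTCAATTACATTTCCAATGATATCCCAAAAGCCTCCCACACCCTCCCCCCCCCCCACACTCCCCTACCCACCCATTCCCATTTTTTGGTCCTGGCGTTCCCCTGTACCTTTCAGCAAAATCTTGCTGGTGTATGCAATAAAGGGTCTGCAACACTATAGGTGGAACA
Increased, gene desert at 115 Mb, chr1:115173301-115173600: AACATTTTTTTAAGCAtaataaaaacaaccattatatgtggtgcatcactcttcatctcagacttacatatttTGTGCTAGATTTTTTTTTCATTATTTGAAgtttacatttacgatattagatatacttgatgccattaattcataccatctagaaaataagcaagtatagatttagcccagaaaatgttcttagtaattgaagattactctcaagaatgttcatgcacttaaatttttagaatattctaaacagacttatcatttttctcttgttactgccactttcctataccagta
Decreased, Cflar intron, chr1:58746976-58747275: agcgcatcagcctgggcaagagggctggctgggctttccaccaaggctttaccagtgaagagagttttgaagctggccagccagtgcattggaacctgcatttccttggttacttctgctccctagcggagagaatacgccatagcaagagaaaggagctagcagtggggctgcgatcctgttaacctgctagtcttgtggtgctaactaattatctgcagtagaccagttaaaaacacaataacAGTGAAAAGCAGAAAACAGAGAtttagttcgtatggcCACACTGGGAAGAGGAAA
Increased, Nav1 intron, chr1:135573826-135574125: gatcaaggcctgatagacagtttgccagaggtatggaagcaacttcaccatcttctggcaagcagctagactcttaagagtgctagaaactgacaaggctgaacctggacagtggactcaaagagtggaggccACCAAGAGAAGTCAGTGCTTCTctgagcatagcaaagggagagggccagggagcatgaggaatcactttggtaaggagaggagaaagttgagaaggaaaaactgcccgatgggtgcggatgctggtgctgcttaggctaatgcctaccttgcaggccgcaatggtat
Of these stretches, the one at 101 Mb was 96.7% soft-masked and the one with the highest WT level 0%, while the one at 115 Mb was the poorest in G and C, at 27.7%. No sequence was common to most peaks. The stretch of 30 bases found in the most peaks of chromosome 1, leaving out simple repeats, occurred in 66 of them (1.20%) and belongs to the B1 family of short interspersed elements.
Most shared stretch: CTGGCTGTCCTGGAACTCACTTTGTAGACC
It was present in 1.02% of the peaks in the densest bins, in 1.26% of the other peaks and in 0.942% of 182722 windows of 1050 bp tiled over chromosome 1, counting both strands.

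Chromosome 1 is also the longest chromosome, and per sequenced Mb it held 28.6 peaks, below the 29.1 of chromosome 14 and above the 27.4 of chromosome 12. It carried 7.25% of the sequenced genome but 10.2% of the peaks, and peaks covered 3.80% of its sequence. The excess did not run along the whole chromosome. The median 1 Mb bin held 12 peaks, as did the median bin of the other autosomes. At the upper end, 24 of its 193 bins held at least 80 peaks, against 16 bins on chromosome 14, 10 on chromosome 7 and at most 10 on any other chromosome. With those bins set aside, chromosome 1 had 16.2 peaks per Mb and the other autosomes had 16.5.

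**Figure D1:**
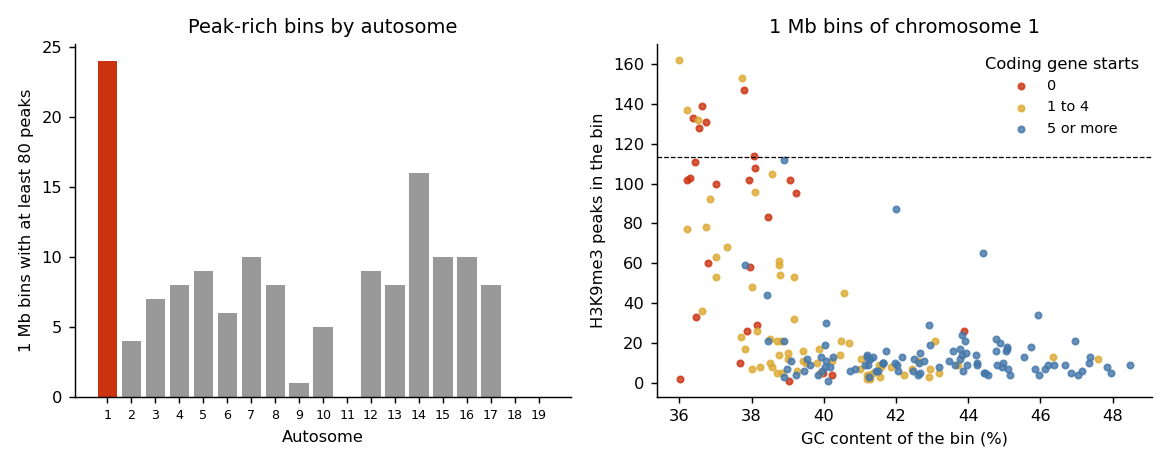
Left, the number of 1 Mb bins with at least 80 H3K9me3 peaks on each autosome, with chromosome 1 in red. Right, each point is a 1 Mb bin of chromosome 1, placed by its GC content (%) and its number of peaks and colored by the number of coding genes that start in it. Points above the dashed line are the 10 densest bins, all with a GC content of at most 38.1%.

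Peak-rich bins were poor in genes. The 26 bins of chromosome 1 in which no coding gene starts held 1952 peaks, or 75.1 per Mb, compared to 31.9 per Mb in bins with 1 to 4 starts and 14.3 per Mb in bins with at least 5. Bins with at least 5 starts were about as dense on the other autosomes (14.7 per Mb), whereas bins with none held 47.4 per Mb there. The median bin without a coding gene start held 97.5 peaks on chromosome 1 and 38 on the other autosomes. These differences between chromosomes rest on 1 set of peak calls, have no replicates and were not tested. Across 192 bins of chromosome 1, which are not independent, peak number went with lower GC content (Spearman's rho -0.468) and with a larger soft-masked share (0.613).

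The 10 densest bins held 114 to 162 peaks each, and the next bin held 112. Together they contained 1376 peaks, which is 25.1% of the peaks of chromosome 1. The densest, from 110 to 111 Mb, held 162 peaks over 216 kb of its sequence. Of these, 34 lay at *Cdh7*, the closest gene with the most peaks there, and the bin from 109 to 110 Mb (132 peaks) had 7 more at the same gene. *Cdh7* and its neighbor *Cdh19* encode type II cadherins, which are adhesion proteins of the nervous system, and all 19 *Cdh19* peaks fell in the densest bin. The second densest, from 115 to 116 Mb, held 153 peaks, with 44 of them at *Cntnap5a*, a gene of the neurexin family of neuronal adhesion proteins. The authors' annotation put no gene within 5 kb of any peak in the bins at 101 to 102 Mb (147 peaks), 27 to 28 Mb (128 peaks) and 114 to 115 Mb (114 peaks). That annotation misses some genes that peaks lie in, such as *Cacna1e*. In the remaining bins few peaks had a gene nearby. The leading gene was *Gm597* with 4 of 137 peaks at 28 to 29 Mb, *AC163659.1* with 3 of 131 at 29 to 30 Mb, and the small nucleolar RNA gene *SNORA17* with 3 of 133 at 145 to 146 Mb and 1 of 139 at 148 to 149 Mb. The dense bins thus formed runs at 27 to 30 Mb, 109 to 111 Mb and 114 to 116 Mb, with 3 single bins elsewhere.

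Peaks in the densest bins were not wider than the others. Both groups had a median width of 1050 bp, with quartiles at 750 and 1650 bp. The widest peak was 7050 bp in the densest bins and 33450 bp in the rest of chromosome 1, and each of the 5 peaks of at least 10 kb lay outside. What differed was the spacing, with a median gap of 3750 bp between neighboring peaks inside and 10650 bp outside, and 6.86% and 4.21% of neighbors touched with no gap. By GENCODE gene models 90.4% of the dense-bin peaks were intergenic, 6.90% intronic and 2.69% exonic, compared to 68.8%, 24.2% and 6.97% outside. Median GC content was 38.9% inside and 41.6% outside, and the median soft-masked share was 39.2% and 40.3%. The WT input held 9.30 reads per kb of peak inside and 9.65 outside, and the KO input 8.56 and 9.19. The WT level was similar, with a median log2 value of 4.01 (quartiles 3.55 and 4.49) inside and 4.08 (3.55 and 4.63) outside. Depth was low everywhere. The median peak of chromosome 1 rested on 15, 19 and 20 reads in WT replicates 1, 2 and 3 and on 14, 17 and 19 in the KO replicates, as counted from the steps of the values. The median SD between 3 libraries was 0.30 in both genotypes inside, and 0.28 in WT and 0.31 in KO outside.

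H3K9me3 changed in KO at 43 peaks of chromosome 1, of which 14 were higher and 29 lower. This is 0.783% of its peaks, while 1.66% of all peaks of the genome were called, 0.796% as increased and 0.863% as decreased. Chromosome 1 had 0.255% of its peaks increased and 0.528% decreased. On chromosomes 14, 12 and 15, the closest to it in peaks per Mb, 0.652%, 1.31% and 1.08% of the peaks changed. These shares were not tested against each other. At all 43 peaks the 3 KO values lay apart from the 3 WT values, which was so for 13.7% of the peaks of chromosome 1 and 15.6% of all peaks. The median log2 fold change was 1.04 among the increases and -0.87 among the decreases. By the authors' annotation a gene lay within 5 kb of 10 of the 14 increased and 17 of the 29 decreased peaks. The share with such a gene was 23.1% over all peaks of chromosome 1 and 29.2% over the genome, and the difference was not tested. The counts leave out changed peaks that lie in genes only by GENCODE gene models. The number of calls depended on the libraries, and more on those of WT. It was 27 without WT replicate 1, 19 without WT replicate 2 and 27 without WT replicate 3. Without KO replicates 1, 2 and 3 it was 37, 31 and 35. Of the 43 calls, 23, 18 and 23 were kept without WT replicates 1, 2 and 3. Without the KO replicates 30, 27 and 26 were kept. Only 3 peaks were called when limma's variance prior was not allowed a trend.

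In the densest bins 2 of 1376 peaks changed (0.145%), both upward, against 41 of 4117 (0.996%) in the rest of the chromosome. Dense bins of the other chromosomes had similarly few calls. There 0.113% of the peaks changed in bins of 80 to 113 peaks and 0.192% in bins of 114 to 206. The first changed peak of the densest bins (chr1:101027251-101029500, 2250 bp) had log2 values of 4.76, 4.43 and 4.38 in WT and 5.28, 5.45 and 5.26 in KO. Its log2 fold change was 0.81 (SE 0.22, adjusted p = 0.036 from limma). At this peak the input counts ran the other way, with 21 reads in WT and 10 in KO. The second (chr1:115172551-115174350, 1800 bp) had 4.27, 4.104 and 3.97 in WT and 4.86, 4.86 and 5.26 in KO, a log2 fold change of 0.88 (SE 0.25, adjusted p = 0.047 from limma). Neither lies in a gene by GENCODE gene models or within 5 kb of one by the authors' annotation. All KO values exceeded all WT values at both, but both calls were marginal. The first was lost in 5 of 6 fits that left out 1 library, and the second in all 6. A similar increase lay in the neighboring bin at 111 to 112 Mb (chr1:111301201-111303450), where WT had 4.43, 4.96 and 4.19 and KO had 5.37, 5.16 and 5.54.

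Single peaks in the dense bins rarely passed the test, but as a group they were higher in KO. The mean log2 value over the 1376 peaks was 4.03, 4.01 and 4.05 in the WT libraries and 4.1001, 4.13 and 4.19 in the KO libraries, so that the genotypes did not overlap. The difference was 0.11, from 4.03 ± 0.022 (SD, n = 3) in WT to 4.14 ± 0.048 (SD, n = 3) in KO. Over the 4117 other peaks the means were 4.12, 4.14 and 4.14 in WT and 4.12, 4.11 and 4.13 in KO, which overlap, with a difference of -0.015. The mean of the densest bins minus that of the rest was -0.094, -0.12 and -0.087 in the WT libraries and -0.017, 0.029 and 0.064 in the KO libraries. The KO mean exceeded the WT mean at 64.2% of the peaks inside, at 48.6% of those outside and at 50.3% of all peaks. These group means were described and not tested, so no p-value is given.

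The difference followed the number of peaks in the bin. On chromosome 1 the mean KO minus WT log2 value was -0.15 for peaks in bins of 5 to 9 peaks, -0.16 for 10 to 19, -0.070 for 20 to 39, 0.047 for 40 to 79, 0.084 for 80 to 113 and 0.11 for 114 or more. In bins of 1 to 4 peaks it was -0.085, or -0.18 without the *Vil1* peak. All 3 KO libraries lay below all 3 WT libraries in each of the 4 classes of up to 39 peaks, and above them in both classes of at least 80 peaks. This was not particular to chromosome 1. On the other chromosomes the same classes gave -0.12, -0.15, -0.12, -0.028, 0.075, 0.085 and 0.11. Since values are relative within a library, the data do not show whether dense bins gained the mark or sparse bins lost it.

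**Figure D2:**
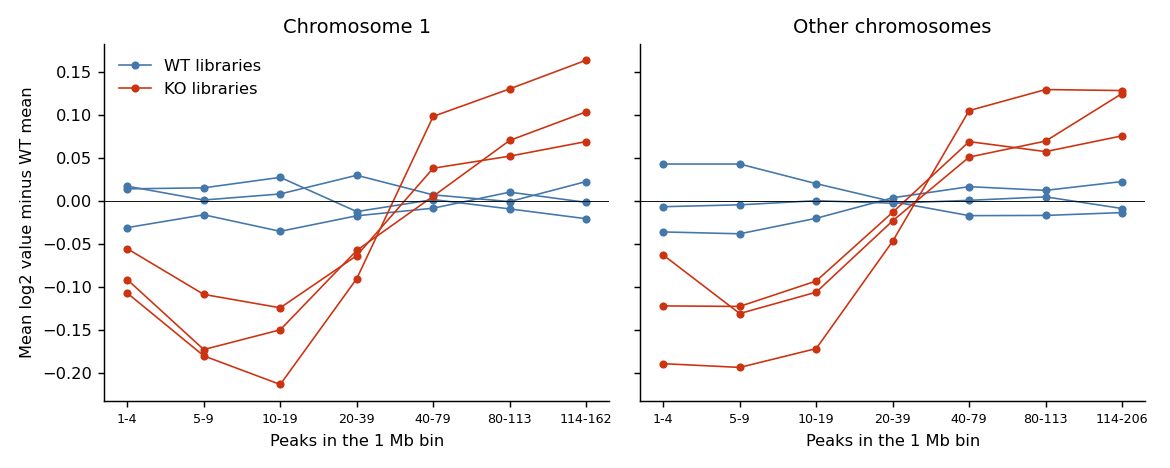
Mean log2 H3K9me3 value of each ChIP library, minus the mean of the 3 WT libraries, for peaks grouped by the number of peaks in their 1 Mb bin, on chromosome 1 (left) and on all other chromosomes (right). The KO libraries (red) lie below the WT libraries (blue) in bins of up to 39 peaks and above them in bins of at least 80.

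The contrast was also computed within classes of peaks. In each of 5 classes of the peaks of chromosome 1 by GC content, the mean KO minus WT value was 0.105 to 0.123 in the densest bins and -0.040 to 0.016 outside. In each of 4 classes by width it was 0.088 to 0.14 inside and -0.025 to -0.0024 outside. In 4 classes by WT level, a value that itself enters the difference, it ran from 0.196 in the lowest class to 0.085 in the highest inside, with 0.069 in the third. Outside it ran from 0.121 in the lowest class to -0.102 in the highest. In every class by GC content, width or WT level the value was higher inside than outside. Among dense-bin peaks with no gene within 5 kb by the authors' annotation it was 0.11. Reads recovered from the steps of the values, which do not depend on the matched distributions, gave the densest bins 24.1%, 23.6% and 24.2% of the reads on chromosome 1 in WT and 25.2%, 25.5% and 26.4% in KO, counted over peaks of at most 100 reads in every library. The KO to WT ratio of input reads was 0.921 in the densest bins and 0.934 in the rest of chromosome 1 without the *Vil1* peak, with 1 input library per genotype and thus no replicate error.

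**Figure D3:**
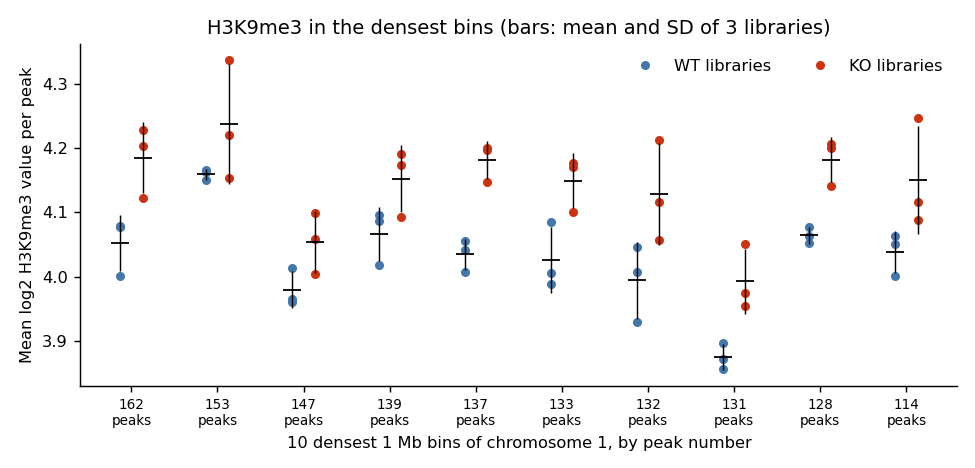
Mean log2 H3K9me3 value over the peaks of each of the 10 densest 1 Mb bins of chromosome 1, ordered by peak number, with 1 point per library (WT blue, KO red) and the mean and SD of 3 libraries in black. In 7 of the 10 bins every KO library lies above every WT library.

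When each 1 Mb bin was tested as a unit, none of the 10 densest bins passed the threshold. Their log2 fold changes ran from 0.07 to 0.15, with adjusted p from 0.13 to 0.46 (limma over 2168 bins with at least 5 peaks). The largest was in the bin at 28 to 29 Mb, with means of 4.04, 4.01 and 4.06 in WT and 4.20, 4.15 and 4.20 in KO. In 7 of the 10 bins all KO libraries lay above all WT libraries. Calls on chromosome 1 were instead decreases, at 13 of 173 bins, or 7.51%. Across the genome 10.4% of bins were called, with 9.5% called as decreased. Without adjustment, 4 bins of chromosome 1 were higher and 47 lower at p under 0.05. The 13 bins held only 5 to 20 peaks each and fell by 0.27 to 0.55 on the log2 scale. Centring the bins on their median moved all fold changes by 0.12 upward. Then 5 bins of chromosome 1 were called, 1 higher and 4 lower, and across the genome the calls went from 20 higher and 206 lower to 41 higher and 38 lower. Without WT replicate 2 or WT replicate 3 there were 4 decreased bins, and without KO replicate 3 there were 8.

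The lowest adjusted p was in the gene-rich bin at 153 to 154 Mb (9 peaks, 2 of them at *Rgsl1*). Its mean was 4.24, 4.25 and 4.24 in WT and 3.87, 3.78 and 3.74 in KO, a log2 fold change of -0.45 (SE 0.0625, adjusted p = 0.0048 from limma). The largest decrease was next to it at 154 to 155 Mb (5 peaks), with 4.03, 4.07 and 4.31 in WT against 3.42, 3.57 and 3.76 in KO. The log2 fold change was -0.55 (SE 0.10). Both bins showed KO values below all WT values. The bin at 63 to 64 Mb, with 3 of its 10 peaks at *Ino80d*, had 4.44, 4.54 and 4.47 in WT and 4.03, 4.15 and 4.09 in KO. *Ino80d* encodes a subunit of the INO80 chromatin remodeling complex.

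The largest increase lay over *Vil1*, which encodes villin, the actin-bundling protein of microvilli. The peak (chr1:74401501-74415600, 14100 bp) spans the start of the gene. Its values were 5.82, 4.92 and 5.04 in WT and 11.17, 10.84 and 10.84 in KO. The log2 fold change was 5.68 (SE 0.14, adjusted p = 1.2e-35 from limma). Input reads over the same interval numbered 133 in WT and 1111 in KO, an 8.35-fold difference. KO mice carry the *Vil-cre* transgene, built with the promoter of this gene, and reads from the transgene and from the gene itself cannot be told apart here. The promoter, the 250 bases before the RefSeq start on the plus strand (GRCm38.p6, chr1:74409134-74409383), lies inside the peak.
Vil1 promoter: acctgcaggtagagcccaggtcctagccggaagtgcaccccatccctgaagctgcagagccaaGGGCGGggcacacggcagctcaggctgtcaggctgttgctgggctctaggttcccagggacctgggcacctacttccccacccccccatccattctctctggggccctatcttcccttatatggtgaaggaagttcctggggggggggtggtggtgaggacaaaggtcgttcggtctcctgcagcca
Capitals mark 1 match to the GC box GGGCGG. Both strands were searched, and 32.9% of 27025 RefSeq promoter windows hold this motif in the same 250 bases. There was no match to the TATA box TATAAA (held by 12.97% of promoters) or to the CCAAT box (held by 34.5%).

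The next increases were smaller. An intronic peak of *Nav1*, a cytoskeletal regulator of neuron migration (chr1:135573451-135574500), had 3.01, 2.45 and 2.59 in WT and 3.95, 5.04 and 4.82 in KO, a log2 fold change of 1.92 (SE 0.35, adjusted p = 0.00025 from limma). A peak of 900 bp in *C130026I21Rik* (chr1:85198951-85199850) had 2.80, 2.87 and 2.96 in WT and 4.25, 4.20 and 4.66 in KO. Its call was lost without KO replicate 3 (adjusted p = 0.088 from limma). Neither pair of groups overlapped, which was a condition for naming these peaks.

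*Boll* encodes an RNA-binding protein of germ cells. Its peak (chr1:55361851-55363800, GC content 62.7%) had 4.87, 4.79 and 4.88 in WT and 6.52, 6.39 and 5.51 in KO. The broader peak of *Dst*, the gene of the cytoskeletal linker dystonin (chr1:34177351-34183050, 5700 bp), rose from 5.97, 5.72 and 5.92 in WT to 6.998, 7.10 and 6.65 in KO. At both of these the calls held whichever library was left out.

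Further increases had log2 fold changes of 1.10 at chr1:71898151-71899350, 1.07 in *Xkr4* and 1.03 in *1700025G04Rik*. *Xkr4* encodes a phospholipid scramblase active in apoptosis. Of these, the *1700025G04Rik* call held in all 6 fits with 1 library left out. The *Xkr4* call was lost in 3 of them and the call at chr1:71898151-71899350 in 4.

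**Figure D4:**
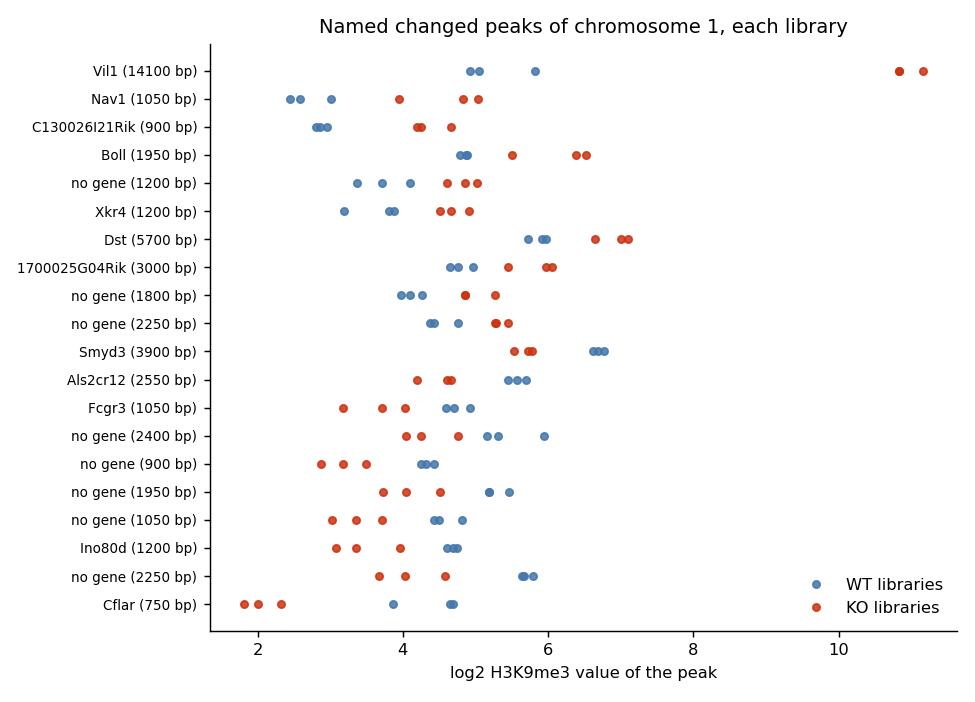
log2 H3K9me3 value in each WT (blue) and KO (red) library for the largest increases and decreases described in the text and the changed peaks of the densest bins, ordered by fold change and labelled by closest gene and width. The largest changes were picked among peaks whose 3 KO values lie apart from the 3 WT values. The *Vil1* values in KO, from 10.84 to 11.17, stand far above all others.

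H3K9me3 fell most at a peak within an intron of *Cflar* (chr1:58746751-58747500, 750 bp), with 4.70, 3.86 and 4.65 in WT and 2.317, 2.00 and 1.81 in KO. The log2 fold change was -2.36 (SE 0.40, adjusted p = 9.4e-05 from limma), and the input held 9 WT and 7 KO reads. *Cflar* encodes c-FLIP, which inhibits caspase-8 downstream of death receptors. Its neighbor *Casp8*, the gene of caspase-8 itself, had a decreased intronic peak, where the input held 30 WT and 35 KO reads. That peak (chr1:58807351-58811850) had 6.93, 6.94 and 6.46 in WT and 6.23, 6.16 and 5.78 in KO, with a log2 fold change of -0.72.

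Both belong to a stretch of 306 kb (chr1:58505551-58811850) that was singled out after its values were seen. It held 13 peaks, of which 4 decreased and none increased. Its ends were set at the outermost of these decreased peaks. The choice of ends thus raised its share of changed peaks, which cannot be weighed against the genome-wide 1.66%. The whole bin from 58 to 59 Mb held 29 peaks, with the same 4 decreases and no increase. The first decreased peak, of 11100 bp over *Gm15834*, had 8.16, 8.13 and 8.12 in WT and 7.45, 7.44 and 7.59 in KO. The fourth was an intronic peak of *Als2cr12*, with 5.57, 5.69 and 5.45 in WT and 4.66, 4.20 and 4.61 in KO. In all 4 the KO values lay below the WT values. The other 9 peaks did not pass the test, and 7 of them had a KO mean above the WT mean, so the stretch did not shift as a block.

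**Figure D5:**
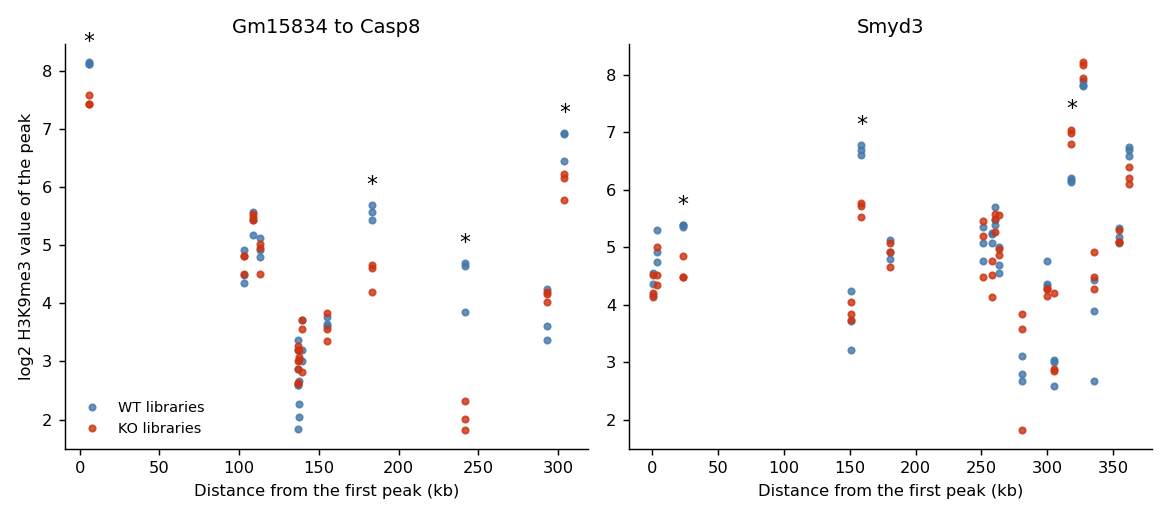
log2 H3K9me3 values of every peak in each WT (blue) and KO (red) library, by distance from the first peak (kb), over the stretch from *Gm15834* to *Casp8* (left) and along *Smyd3* (right). Asterisks mark peaks that changed, which are 4 decreases on the left and, on the right, 2 decreases and 1 increase.

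*Smyd3*, the gene of a lysine methyltransferase, showed changes in both directions among its 18 peaks. The peak at chr1:179266651-179270550 was lower in KO, with 6.69, 6.61 and 6.77 in WT and 5.77, 5.53 and 5.72 in KO (log2 fold change -1.02, SE 0.16). A smaller peak at chr1:179132251-179133900 also decreased, from 5.38, 5.35 and 5.38 to 4.86, 4.48 and 4.48. Nearer the start of the gene, which lies on the minus strand, the peak at chr1:179425201-179430600 increased, from 6.20, 6.18 and 6.13 in WT to 7.05, 6.99 and 6.79 in KO (log2 fold change 0.77, SE 0.14). Each of these 3 lies in an intron and has groups that do not overlap. The adjacent peak of 12150 bp, among the widest of the chromosome, had 7.80, 7.90 and 7.82 in WT and 8.18, 8.22 and 7.95 in KO. Its KO values also lay above all WT values, but it did not pass (adjusted p = 0.30 from limma).

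The remaining large decreases had log2 fold changes from -1.60 to -1.10. A peak with no gene within 5 kb by the authors' annotation (chr1:30919501-30921750) had 5.79, 5.64 and 5.67 in WT and 4.58, 4.03 and 3.67 in KO. The *Ino80d* peak (chr1:63069601-63070800) fell by 1.22 and the intergenic one at chr1:35286601-35288550 by 1.18 on the log2 scale. A peak near *Fcgr3*, which encodes a low-affinity receptor for immunoglobulin G on immune cells, had 4.93, 4.60 and 4.70 in WT and 3.71, 4.03 and 3.18 in KO. Its input counts were 11 in WT and 5 in KO, and at chr1:61012801-61013700, which fell by 1.15, they were 14 and 5. After subtraction of the input these 2 turned direction, to 0.04 and 0.33. The decrease at chr1:154800601-154801650 lies in *Cacna1e* and that at chr1:178163851-178166250 in *Catspere2* by GENCODE gene models, with log2 fold changes of -1.22 and -1.12. With 1 library left out, the calls at *Ino80d* (in 3 of 6 fits), *Fcgr3* (4), 61012801 (5), 154800601 (4) and 178163851 (1) were lost.

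The 2 widest peaks lie at *C130026I21Rik*, with a peak of 5850 bp between them. The peak of 33450 bp (chr1:85267351-85300800) had the highest WT level of the chromosome, with 10.55, 10.55 and 10.84 in WT and 10.45, 9.94 and 10.65 in KO. These values are counts per peak and are not scaled by width. The peak of 18600 bp (chr1:85242301-85260900) had 9.79, 9.71 and 9.81 in WT and 9.67, 9.19 and 9.75 in KO. Genotypes overlapped at both, and neither passed the test (adjusted p = 0.17 and 0.35 from limma). The input held 889 reads in WT and 843 in KO over the wider one. Input was dense here, with 19.3 WT and 18.5 KO reads per kb over the peaks from 85 to 86 Mb. Over all peaks of chromosome 1 it was 9.56 and 9.04, and the cause was not tested. The gene models *Gm2619*, *Gm7609* and *Gm16026* overlap its peaks, so which gene its 47 peaks belong to is uncertain.

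The closest genes with the most peaks were *Cntnap5a* with 112, 44 of them in the densest bins, *Dpp10*, which encodes a modulator of potassium channels, with 64, *C130026I21Rik* with 47, *Pid1* with 45 and *Cdh7* with 41. Of these peaks only the *C130026I21Rik* peak described above changed. Averaged over its peaks, *Cntnap5a* had 4.06, 3.99 and 4.00 in WT and 4.08, 4.06 and 4.20 in KO. *Dpp10* had 4.096, 4.01 and 4.07 in WT and 4.16, 4.16 and 4.25 in KO. The means for *C130026I21Rik* were 4.36, 4.38 and 4.38 in WT and 4.48, 4.41 and 4.55 in KO. At these 3 genes and at *Cdh7*, which had 3.69, 3.79 and 3.83 in WT and 3.87, 3.93 and 3.88 in KO, every KO mean lay above every WT mean. Such means weigh narrow and wide peaks alike. At *C130026I21Rik* the KO mean exceeded the WT mean at 28 of 47 peaks. At its peaks of 33450 and 18600 bp the KO mean was the lower (log2 fold changes -0.30 and -0.23), and neither changed. Its gene mean therefore does not describe the wide peaks. The groups overlapped at *Pid1*, with 4.26, 4.13 and 4.32 in WT and 4.34, 4.26 and 4.37 in KO. Next in number was *A830018L16Rik* with 40 peaks, where WT had 3.99, 3.98 and 4.05 and KO had 3.96, 3.94 and 3.99. *Cntnap5b*, with 26 peaks and outside the densest bins, had 3.86, 3.96 and 3.89 in WT and 3.74, 3.59 and 3.74 in KO, with all KO means below the WT means. These genes were picked by their number of peaks after the values were seen, and *Cntnap5b* as the second *Cntnap5* gene.

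Gene families of chromosome 1 that are clustered or act in the gut epithelium were searched by gene symbol, and most of these lists had few peaks. *Ugt1a10*, of the glucuronidation enzymes, had 9 peaks with a median of -0.35, and none changed. Over all peaks the median was 0.0023. Of the Ifi200 family, which holds sensors of foreign DNA, *Pydc3* had 2 and *Pydc4* 4 peaks. One of these decreased (chr1:173575351-173582250, within *Ifi213* by GENCODE), from 7.41, 7.31 and 6.93 in WT to 6.79, 6.72 and 6.67 in KO (log2 fold change -0.49, adjusted p = 0.046 from limma).

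Among 15 genes of the intestinal epithelium, *Lgr6*, a receptor for R-spondins, had 3 peaks and *Prox1* and *Vil1* 1 each, and only the *Vil1* peak changed. By the authors' annotation the other members, with *Ihh* and *Cps1* among them, had no peak within 5 kb. The serpin clade B cluster also had 0 peaks. The flavin monooxygenases had 4 peaks, the SLAM receptors 3, and the Sp100 family, the olfactory receptors and the KH-domain genes 1 each, none of which changed. The Sp100 family was searched as *Sp100*, *Sp110*, *Sp140* and *Csprs* only. Peaks annotated to *C130026I21Rik* were not counted in it, and whether that gene belongs to the family was not examined. The single peaks were at *Sp140* (log2 fold change 0.09), *Olfr1415* (-0.83) and *Khdc1b* (-0.93). None of the peaks of these lists lay in the densest bins.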

How the data were processed

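H3K9me3 ChIP-seq from 3 KO and 3 WT libraries and 1 input per genotype was used, grouped by sample title. The authors trimmed reads with Trim Galore, mapped them to GRCm38 with Bowtie2 2.3.2, discarded duplicates and alignments with mapping quality below 20, and ran the MACS peak caller of SeqMonk once (fragment size 300, p-value threshold 1e-05). In the deposited table, ChIP values are log2 counts matched to 1 distribution across libraries, which would hide a change shared by most peaks, and the deposited input values are unscaled log2 counts. A second deposited table with the authors' edgeR p-values, FDR and fold changes was not used. Sample labels give 50 bp single-end reads and the methods paired-end reads.

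Peaks were placed in 1 Mb bins by midpoint, and the 10 bins with the most peaks were the densest. limma 3.58.1 in R 4.3.3, with a variance trend and two-sided tests, was fitted over all 53761 peaks and over the mean values of 2168 bins with at least 5 peaks. In simulated libraries the peak test recovered 47 of 100 changes of 1 and 73 of 100 of 1.5 on the log2 scale, with 6 false calls. The simulated spread was normal and set by the mean value alone. That setting suits the variance trend, so recovery and false calls in the real data may differ. Gene classes came from GENCODE gene models, GC content and soft-masking from the RefSeq GRCm38 sequence (Python 3.11.15). Reads were recovered as the rank of each value among a library's distinct values.

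Named peaks were the 10 largest increases and 10 largest decreases whose groups did not overlap, changed peaks and leading genes of the densest bins, the 5 widest peaks and peaks at 10 gene lists. Some of these are not reported here. The members and lists were chosen with earlier results of these data known. Alternatives were another variance prior, a minimum mean log2 value of 4, other scalings, ChIP minus input, a replicate block, stricter thresholds, other bins and leaving out each library.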

Additional observations from a re-analysis of the deposited data

How the results depend on the processing

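The 43 changed peaks of chromosome 1 became 3 with a trend-free variance prior, 20 at an adjusted p under 0.01, 18 with a log2 fold change of at least 1 and 1618 (1004 higher, 614 lower) for ChIP minus input, where 1 input value is subtracted from all 3 libraries of a genotype. Leaving out 1 library gave 19 to 37. The 2 changed peaks of the densest bins became 0 under the same prior and both stricter thresholds, 399 for ChIP minus input, and 0 to 1 without 1 library. The 13 changed bins became 71 for ChIP minus input (41 higher, 30 lower), 37 with summed linear values, 20 with at least 10 peaks per bin, 1 at an adjusted p under 0.01, 5 and 4 after centring or quantile normalization of the bin values (both chosen after seeing the data), and 4 to 15 without 1 library. For ChIP minus input the subtraction adds to the fold and not to the spread, and for the others the cause was not tested. Other definitions of the densest bins held 44.0% of the peaks (20 bins), 23.8% (bins with the most covered bases) and 22.2% (2 Mb bins), against 25.1%. The mean difference over the densest bins, whose alternatives were chosen after seeing the data, was 0.11 and stayed at 0.10 to 0.13 under all of them but ChIP minus input (0.24), with 0.086 to 0.13 without 1 library.

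With the replicate number as a block, 38 peaks, 1 peak in the densest bins and 11 bins changed. The sample labels state no pairing of same-numbered libraries. Their deviations from the group means correlated at -0.0013, 0.019 and 0.016. At the low depth of these libraries such values cannot show whether same-numbered libraries share a batch. Of the 21 named changed peaks, 10 passed in all 6 fits without 1 library and 19 with the block, but 3 without the trend. After ChIP minus input, the unnamed peak at 61012801 had 0.33 and the *Fcgr3* peak 0.037, opposite to their direction.

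The median peak rested on 14 to 20 reads in a library. With 1 input per genotype, input differences carry no replicate error. In simulated data, with a spread set by the mean value alone, 47 of 100 changes of 1 on the log2 scale, up or down, were detected.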
